A study of Bos taurus with 16 samples.

Results

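Corpora lutea taken from cattle at day 20 of pregnancy were compared with corpora lutea taken at day 14, across every microRNA (miRNA) probe of a NanoString panel. The samples were chosen by their labelled day: 4 at day 14 and 4 at day 20, which is 8 of the 16 samples, and the other 8 came from days 17 and 23. All glands came from Bos taurus females that were mated and then inseminated, with the day counted from breeding, and animals not found pregnant were not used. No non-pregnant group is among the samples analysed here, so the day of pregnancy and the age of the gland cannot be told apart. The sources used here give neither breed nor animal age, and no drug treatment or genotype is labelled. The labels assign each sample to 1 of 2 NanoString runs. Replicates 1 and 2 of each day were in run 1 and replicates 3 and 4 were in run 2, so every difference could be read within each run. NanoString hybridises colour-coded probes to RNA molecules and counts them without amplification. The 204 probes were measured in whole-gland RNA, and the values are the normalized counts that the authors deposited.

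The corpus luteum is the gland that forms from the ovulated follicle and secretes progesterone, without which pregnancy is lost. In cattle the uterus ends the life of the gland with pulses of prostaglandin F2 alpha unless an embryo is present, and the elongating embryo secretes interferon tau, which blocks those pulses. MicroRNAs are short RNAs that pair with messenger RNAs and lower their translation or stability. Each is cut from a hairpin whose arms are named 5p and 3p, and neighbouring hairpins are often cut from a single transcript. The whole gland holds steroid-secreting luteal cells, endothelial cells, pericytes, fibroblasts and leukocytes, and in such a mixture fewer cells of a type and less RNA per cell cannot be told apart. None of the probes is known to mark steroid-secreting luteal cells alone, so the tissue label could not be checked on these values. Some miRNAs of endothelium and of smooth muscle, pericytes and fibroblasts were among the brightest probes, and others were not. By mean level over the 8 samples, miR-126-3p and the miR-199a-3p/miR-199b-3p probe ranked 5 and 8, and miR-222-3p and miR-140-5p ranked 110 and 115. The single measured epithelial miRNA, miR-141-3p, read from 42.8 to 66.7 normalized counts in those samples.

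All 4 samples of run 2 had higher totals than all 4 of run 1. Summed normalized counts were 175197 and 213338 in the day 14 samples of run 1, 290323 and 289406 in the day 20 samples of run 1, 403912 and 523985 in the day 14 samples of run 2, and 373847 and 498887 in the day 20 samples of run 2. The day 20 totals thus lay above the day 14 totals in run 1 and overlapped them in run 2. The difference of log2 totals was 0.58 in run 1 and -0.09 in run 2, and an exact permutation of day labels within runs gave a two-sided p of 0.389 (adjusted over 4 sample measures, 0.611). That test has 36 arrangements and cannot give a p below 0.0556.

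The probes carry human names. Set against RefSeq's genes for ARS-UCD2.0, a cattle genome assembly, 152 probes share their name with a bovine gene (same-named probes), 14 share only its number and differ in letter or copy, and 38 match none. The probes with no bovine gene were set apart as a class. Most of them were dim in run 2, but the class also holds the miR-4454/miR-7975 probe, among the 10 brightest of the panel. Their median was 258 and 184 normalized counts in the day 14 samples of run 1, 132 and 142 in the day 20 samples of run 1, and between 42.2 and 60.9 in the 4 samples of run 2. Day 14 replicate 1 had the largest share of probes with a bovine gene below the median of the probes with none, 87 of 152 (57.2%). In the other run 1 samples of these days the share was 46.7% at day 14, and 37.5% and 43.4% at day 20. The run 2 samples had 13.8% and 7.89% at day 14, and 19.1% and 11.8% at day 20, so the share differed by run as well. Values without day 14 replicate 1 stand beside the results below that they change most.

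**Figure D1:**
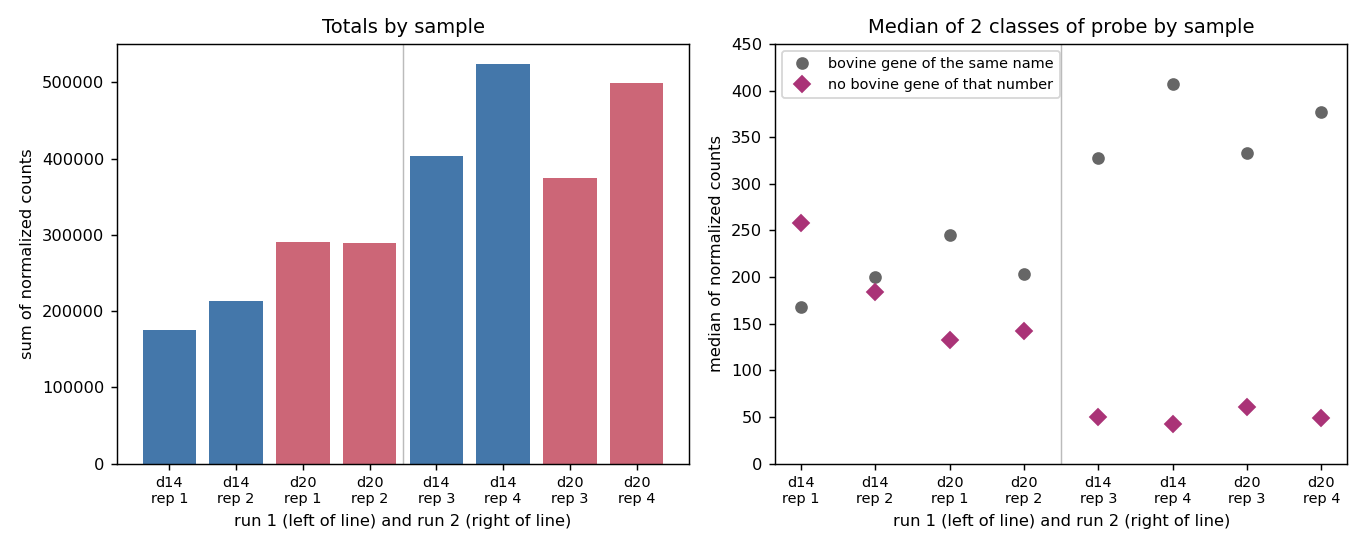
Left, the sum of normalized counts over 204 probes in each of the 8 samples (bars, blue for day 14 and red for day 20). Right, the median of the 152 probes with a bovine gene of the same name (grey circles) and of the 38 probes with none (purple diamonds). The purple point lies above the grey point in day 14 replicate 1 alone, at 258 against 168 normalized counts.

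No probe passed the test across the panel. Differences were fitted with limma on log2(normalized count + 1) to all 16 samples, with the day as a factor and the run held. At a Benjamini-Hochberg adjusted p under 0.05, 0 of 204 probes were called (0%), and the smallest adjusted p was 0.679. At an unadjusted p under 0.05, 13 probes were found (6.37%), of which 8 read higher at day 20 (3.92%) and 5 read lower (2.45%). Over the whole panel, 105 probes were higher and 99 lower, with a median log2 difference of 0.01. The classes were not balanced alike, with 87 higher and 65 lower among same-named probes, and 12 and 26 among those with no bovine gene. With each sample centred on its same-named probes instead, the median was -0.11 and 40.7% of probes were higher in place of 51.5%. Over the 71 probes past a filter on low values, the median was 0.21 and 70.4% were higher. The values that follow describe these probes, and none of them is a called change.

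The runs disagreed on direction for about as many probes as they agreed on. Of the 204 probes, 98 (48.0%) differed in the same direction in both runs. In run 1, both day 20 samples lay above both day 14 samples for 72 probes (35.3%) and below them for 47 (23.0%). In run 2 the counts were 28 above (13.7%) and 41 below (20.1%). Across the 204 probes, which share their samples and are not independent, the run 1 and run 2 differences had a Pearson correlation of -0.19 and a Spearman correlation of -0.14. With each day fitted within each run, limma called 0 probes in run 1 (0%) and 0 in run 2 (0%). Under quantile normalization, 1 probe was called in run 1, the endothelial miR-222-3p (log2 difference 1.37, adjusted p 0.0276 by limma, a setting added after the data were seen). At an unadjusted p under 0.05, 22 probes were higher and 13 lower in run 1, and 5 were higher and 7 lower in run 2. With run 1 fitted alone on its own spread, 31 probes were called (15.2%). The difference between the runs, tested as an interaction, was called for 0 probes (0%), with a smallest adjusted p of 0.133 and 32 probes at an unadjusted p under 0.05.

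The direction within run 1 followed the class of the probe. Both day 20 samples lay above both day 14 samples in run 1 for 64 of the 152 same-named probes and below for 20. Among the 38 probes with no bovine gene, 4 were above and 26 were below. In run 2 the same counts were 19 above and 33 below for probes with a bovine gene, and 7 above and 3 below for those without. The median log2 difference of the probes with no bovine gene was -0.64 in run 1 and 0.20 in run 2, against 0.24 and -0.12 for those with one. The run 1 median of the probes with no bovine gene was -0.39 without day 14 replicate 1, and their median over both runs was 0.027 in place of -0.13. The contribution of this class to the differences of single probes was not tested.

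**Figure D2:**
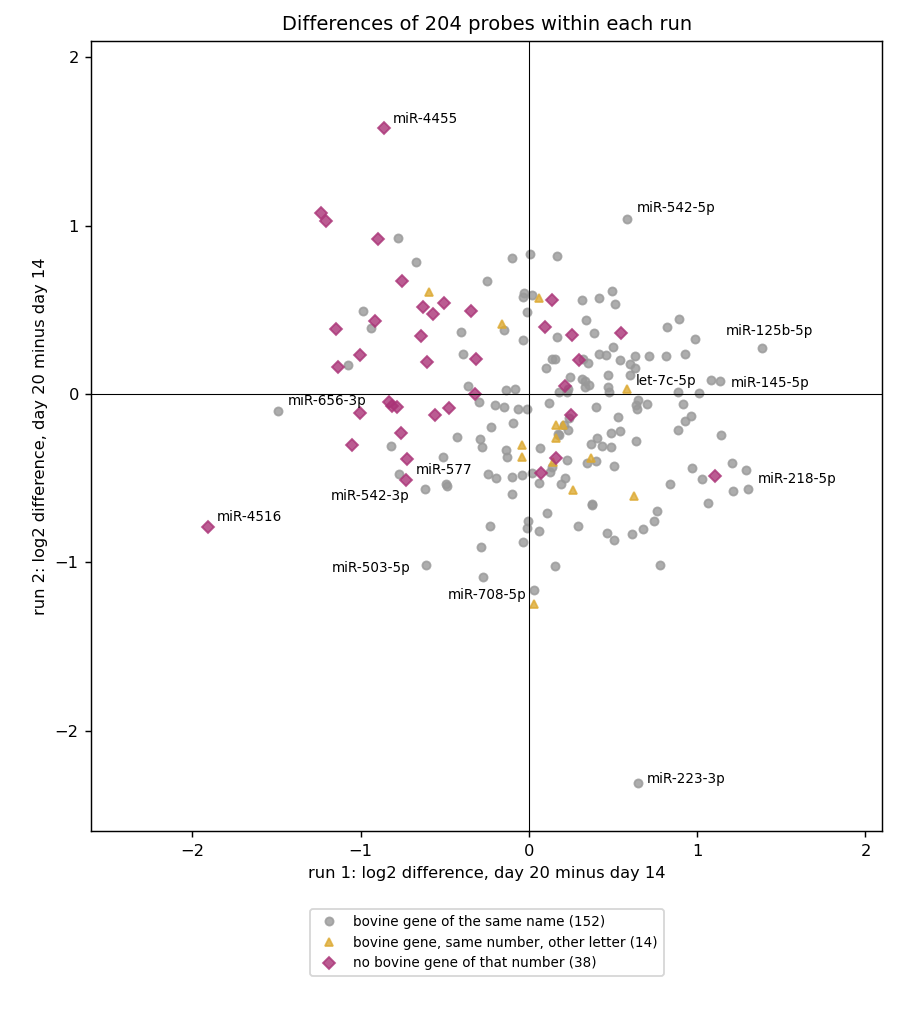
Each point is 1 of the 204 probes, with its log2 difference (day 20 minus day 14) in run 1 on the horizontal axis and in run 2 on the vertical axis. Probes with no bovine gene (purple diamonds) gather on the left, with a run 1 median of -0.64, and miR-542-5p stands high in both runs at 0.59 and 1.04.

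The largest difference among the probes higher at day 20 was that of miR-125b-5p, a mammalian relative of lin-4, the first miRNA described in the worm. In run 1 it read 6051 and 8474 normalized counts at day 14 and 14726 and 23810.1 at day 20. In run 2 it read 22731 and 17520.3 at day 14 and 26392 and 22013 at day 20. The groups did not overlap in run 1 and did so in run 2. The log2 difference was 0.83 (SE 0.29, 95% interval 0.22 to 1.44, unadjusted p 0.0101), made of 1.39 in run 1 and 0.27 in run 2. Without day 14 replicate 1 it was 0.60, with an unadjusted p of 0.0541.

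The gene of miR-125b-5p has 2 bovine copies, and their neighbours were measured as well. MIR125B-2 lies within 100000 bases of MIRLET7C and MIR99A, and MIR125B-1 within that distance of MIRLET7A-2 and MIR100. For let-7c-5p, of the let-7 family that limits growth and marks differentiated cells, run 1 gave 5739 and 7356 normalized counts at day 14 and 12718 and 14913 at day 20. Run 2 gave 12851 and 14749 at day 14 and 14193 and 15018 at day 20. The groups were apart in run 1 and overlapped in run 2. Its log2 difference was 0.58 (SE 0.23), with 1.08 in run 1 and 0.085 in run 2, and 0.44 without day 14 replicate 1. The other neighbours, miR-99a-5p and miR-100-5p, went opposite ways in the runs. Their run 1 differences were 1.21 and 1.21, and their run 2 differences were -0.58 and -0.41. The third group of this kind, MIR99B with MIRLET7E and MIR125A, gave log2 differences of 0.30 for miR-99b-5p, 0.45 for let-7e-5p and 0.21 for miR-125a-5p, each near 0 in run 2 (-0.037, 0.011 and 0.053). With day 14 replicate 1 left out these were 0.16, 0.27 and -0.0092, so that the last one turned, and miR-99a-5p and miR-100-5p were at 0.041 and 0.16 over both runs. The other arm of MIR125A, the dim miR-125a-3p, read higher in both runs, by 0.42 and 0.57. Its log2 difference over both was 0.50 (SE 0.24).

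As families, let-7 and miR-99/100/125 had medians above 0 in run 1 and close to 0 in run 2. Of 9 let-7 and miR-98 probes, 8 read higher at day 20, with a median of 0.29 that was 0.63 in run 1 and -0.06 in run 2. All 6 miR-99/100/125 probes read higher, with a median of 0.36 that was 0.93 in run 1 and 0.01 in run 2. The median over all probes was 0.01, and without day 14 replicate 1 the medians of these families were 0.12 and 0.16. The let-7 probes differ by few bases, and signal shared between them was not measured.

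Also higher was miR-145-5p, which together with miR-143 marks contractile smooth muscle and pericytes. It read 2157 and 2814 normalized counts at day 14 and 5655 and 5199.7 at day 20 in run 1, and 6635 and 7302 at day 14 and 7067 and 7613 at day 20 in run 2. Both day 14 samples of run 1 were low, and the remaining 6 samples lay between 5199.7 and 7613. The log2 difference was 0.61 (SE 0.24), or 1.14 in run 1 and 0.076 in run 2. It was 0.44 over both runs without day 14 replicate 1. Its cluster partner miR-143-3p had 0.97 in run 1 and -0.44 in run 2.

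The miR-497-5p probe belongs to the miR-15/16 family, whose members restrain the cell cycle, and its gene neighbours MIR195. It read 446 and 534 at day 14 and 974 and 885 at day 20 in run 1, and 981 and 1422 at day 14 and 1099 and 1764 at day 20 in run 2. The groups overlapped in run 2 only, and the log2 differences were 0.93 and 0.24 in the runs and 0.58 (SE 0.25) over both, or 0.47 without day 14 replicate 1. Its neighbour miR-195-5p differed the same way in both runs, by 0.50 and 0.28. The miR-15/16 list has 7 probes and also holds miR-107, at 0.26, which is named apart from that family. Of these 7, 6 kept their direction in both runs, 4 as higher and 2 as lower. The list median was 0.19, or 0.036 without day 14 replicate 1. Beside miR-107 and miR-497-5p, the values were 0.39 for miR-195-5p, 0.19 for miR-15b-5p, -0.17 for miR-16-5p, -0.43 for miR-424-5p and -0.46 for miR-15a-5p.

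Of the miR-30 family, which is broadly expressed in differentiated tissues, miR-30d-5p and miR-30a-5p read higher at day 20 in both runs. For miR-30d-5p, run 1 gave 95.6 and 131 normalized counts at day 14 and 248 and 199 at day 20, and run 2 gave 342 and 455 at day 14 and 484 and 507 at day 20. The groups did not overlap in either run. On the log2 scale it differed by 0.66 (SE 0.30), with 0.98 and 0.33 in the runs, and 0.48 without day 14 replicate 1 (unadjusted p 0.14). For miR-30a-5p, run 1 gave 111 and 144 at day 14 and 251 and 221 at day 20, and run 2 gave 239.8 and 430.2 at day 14 and 345 and 557 at day 20. Its days were apart in run 1 and overlapped in run 2. The fitted log2 difference was 0.67 (SE 0.31), with 0.89 and 0.45 in the runs and 0.56 without day 14 replicate 1. The remaining 5' arms were at 0.36 for miR-30c-5p, 0.17 for miR-30b-5p and -0.16 for miR-30e-5p, the last of which was 0.018 without that sample. Mean miR-30d-5p was 256 ± 172 normalized counts at day 14, 306 ± 171 at day 17, 359.6 ± 158 at day 20 and 444 ± 165 at day 23 (SD, n = 4 each). The means step up while these spreads, which hold the gap between the runs as well, overlap. In the same order of days, the means were 113, 174.5, 224 and 319 in run 1 and 399, 438, 495 and 569 in run 2, from 2 samples each.

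One probe had its larger difference in run 2 among those that read higher. In run 1, miR-542-5p read 289 and 322 normalized counts at day 14 and 360.1 and 582 at day 20. In run 2 it read 147 and 132 at day 14 and 295 and 281 at day 20. The days did not overlap in either run. The log2 difference was 0.81 (SE 0.32, 95% interval 0.15 to 1.48), with 0.59 in run 1 and 1.04 in run 2. Without day 14 replicate 1 it was 0.89 (unadjusted p 0.0196). The 4 days had means of 222, 349, 379 and 396 normalized counts. The probe read higher in run 1 than in run 2, with a log2 difference of -0.53 (run 2 minus run 1), as did 30 of the 38 probes with no bovine gene and 16 of the 152 with one, itself included.

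The probe shared by miR-5196-3p and miR-6732-3p, human names with no bovine gene, was also among those higher at day 20. It read 673 and 718 at day 14 and 1125 and 919 at day 20 in run 1, and 1046 and 1350.2 at day 14 and 1338 and 1748 at day 20 in run 2. The log2 difference was 0.46 (SE 0.22), the days overlapped in run 2, and the sources used here do not say which bovine RNA it counts.

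**Figure D3:**
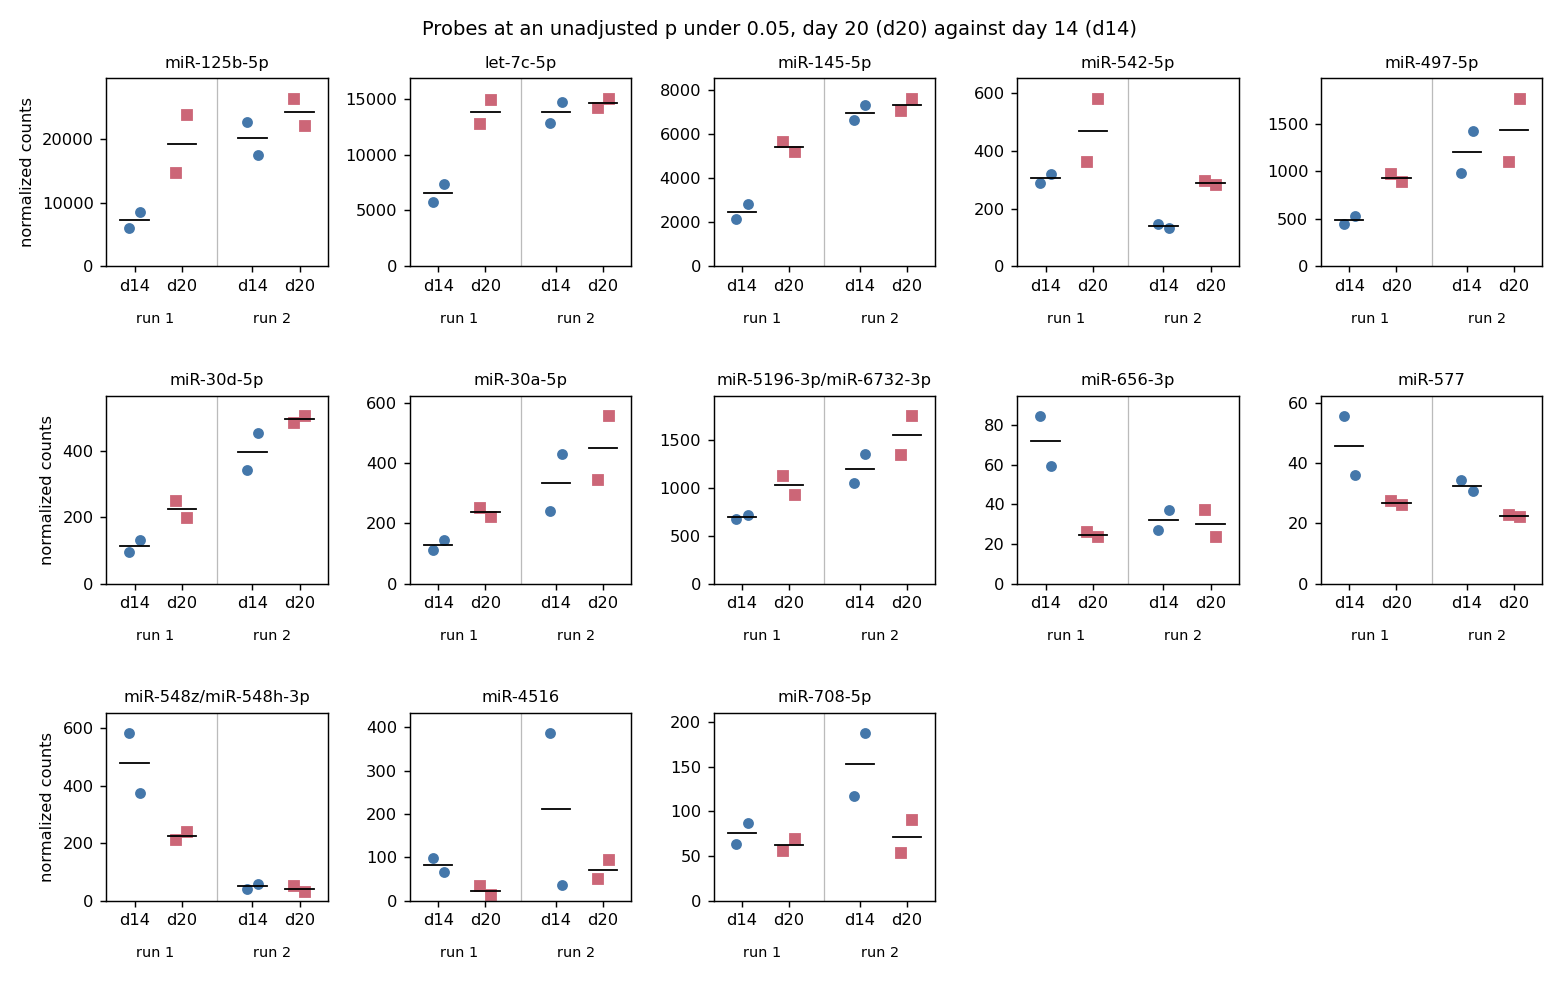
Normalized counts (vertical axes, each from 0) of the 13 probes at an unadjusted p under 0.05, with day 14 as blue circles, day 20 as red squares, run 1 left and run 2 right of the grey line, and bars for the mean of each pair. For miR-145-5p the run 1 bars stand far apart and the run 2 bars nearly meet, with log2 differences of 1.14 and 0.08, whereas for miR-577 and miR-542-5p the days are apart in both runs.

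Of the 5 probes lower at day 20, miR-708-5p had the larger difference in run 2. Its human gene lies in an intron of TENM4, a cell surface protein gene. It read 63.6 and 87.3 at day 14 and 55.2 and 68.7 at day 20 in run 1, and 117 and 188 at day 14 and 52.9 and 90.9 at day 20 in run 2. The days overlapped in run 1 and were apart in run 2. The log2 difference was -0.68 (SE 0.32), with -0.27 and -1.09 in the runs, and -0.87 without day 14 replicate 1 (unadjusted p 0.0158). The means of the 4 days were 114, 79.1, 66.9 and 60.0 normalized counts.

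The miR-656-3p probe belongs to the imprinted DLK1-DIO3 cluster, which is transcribed from the maternal chromosome. It read 84.9 and 59.4 at day 14 and 26.0 and 23.4 at day 20 in run 1, and 27.04 and 37.3 at day 14 and 37.0 and 23.6 at day 20 in run 2. All 8 values are low, and in run 2 the days overlapped. The log2 differences were -1.49 in run 1 and -0.10 in run 2, which made -0.79 (SE 0.32) over both and -0.51 without day 14 replicate 1.

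The other 3 lower probes have no bovine gene. The probe for miR-577 read 55.8 and 36.02 at day 14 and 27.4 and 26.0 at day 20 in run 1, and 34.5 and 30.8 at day 14 and 22.9 and 22.3 at day 20 in run 2, so that all 4 day 20 samples lay below all 4 day 14 samples. Its log2 difference was -0.62 (SE 0.25). The probe for miR-548z and miR-548h-3p, of a primate family, read 583 and 374 at day 14 and 210.0 and 240.3 at day 20 in run 1, and 40.6 and 58.6 at day 14 and 51.1 and 30.3 at day 20 in run 2, a log2 difference of -0.68 (SE 0.29). The probe for miR-4516 read 97.5 and 66.2 at day 14 and 34.9 and 12.1 at day 20 in run 1, and 387 and 35.7 at day 14 and 49.4 and 93.6 at day 20 in run 2. Its log2 difference of -1.35 (SE 0.62) was the largest of the panel and rested in run 2 on 387 normalized counts in day 14 replicate 3. All 7 probes of the miR-548 family read lower, with a median of -0.43 that was -0.78 in run 1 and -0.05 in run 2. The median was -0.21 without day 14 replicate 1, with 3 of the 7 higher.

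Among the 13 probes together, every one had the same direction in both runs and 11 had the larger difference in run 1. Days did not overlap in run 1 for 12 of them, in run 2 for 4, and in both runs for 3, namely miR-542-5p, miR-30d-5p and miR-577. Without day 14 replicate 1, 2 of the 13 remained at an unadjusted p under 0.05, miR-542-5p and miR-708-5p, and miR-503-5p joined them at 0.0436. All 13 kept their direction without that sample, at 0.43 to 0.89 for the higher probes and -1.18 to -0.48 for the lower ones. These counts follow in part from the choice of the 13, which uses both runs.

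Over the whole panel, the days were apart in both runs for 6 probes higher at day 20 (2.94%) and 5 probes lower (2.45%). Over all 8 samples, no probe had every day 20 sample above every day 14 sample (0%), and 2 had every one below (0.980%), miR-376a-3p and miR-577. Beside miR-542-5p and miR-30d-5p, the 6 higher probes were miR-26a-5p, miR-197-5p, miR-505-3p and miR-455-3p. The miR-26a-5p probe, for a miRNA that is abundant in many tissues, read 2549 and 2669.7 at day 14 and 3412 and 3752 at day 20 in run 1, and 3960.0 and 3956 at day 14 and 4364 and 4951 at day 20 in run 2. On the log2 scale it differed by 0.34 (SE 0.21), and under quantile normalization it was -0.03. The other 3 were lower in level. In the runs, miR-197-5p differed by 0.34 and 0.44, miR-505-3p by 0.71 and 0.22, and miR-455-3p by 0.60 and 0.18.

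Beside miR-577, the 5 lower probes were miR-376a-3p, miR-19a-3p, miR-19b-3p and miR-340-5p. The DLK1-DIO3 member miR-376a-3p read 107 and 99.3 at day 14 and 74.9 and 71.3 at day 20 in run 1, and 136 and 89.7 at day 14 and 67.0 and 85.5 at day 20 in run 2. The fitted log2 difference was -0.52 (SE 0.25, unadjusted p 0.0548), and the runs gave near-equal values of -0.49 and -0.54. The lowest day 14 value and the highest day 20 value, 89.7 and 85.5, were both from run 2 and close together.

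Both miR-19 probes count members of the miR-17 to miR-92 cluster, which promotes cell growth. For miR-19b-3p, run 1 gave 143 and 197 at day 14 and 127 and 112 at day 20, and run 2 gave 288 and 271 at day 14 and 141 and 259 at day 20. For miR-19a-3p, run 1 gave 57.8 and 67.7 at day 14 and 45.7 and 28.6 at day 20, and run 2 gave 79.0 and 84.8 at day 14 and 45.8 and 74.7 at day 20. Within each run the days were apart for both, with log2 differences of -0.52 (SE 0.30) and -0.62 (SE 0.38). Signal shared between the near-identical miR-19 RNAs was not measured. Of the 9 probes of this cluster and its paralogs, 6 read lower and 3 higher, 5 were lower in both runs and none was higher in both, and their median of -0.17 was -0.20 in run 1 and -0.34 in run 2. That median was -0.36 without day 14 replicate 1, as was the run 1 median.

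The genes of miR-424, miR-503, miR-542, miR-450a and miR-450b lie within 100000 bases of one another in ARS-UCD2.0, and in mammals they form an X-linked cluster whose miR-424 and miR-503 hold back the cell cycle. Of its 6 probes, 5 read lower at day 20 and the sixth was miR-542-5p. The cluster median was -0.50, with -0.40 in run 1 and -0.53 in run 2, and 5 of the 6 probes had the same direction in both runs. Without day 14 replicate 1 the median was -0.55. The list was examined with its values known, and no test was made of it.

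The brightest member, miR-503-5p, read 1531 and 1798 normalized counts at day 14 and 1191 and 986 at day 20 in run 1. In run 2 it read 2512 and 9080.0 at day 14 and 1495 and 3733 at day 20. The days were apart in run 1 and overlapped in run 2, where 1 day 14 sample was far above the rest. Its log2 difference was -0.81 (SE 0.40, unadjusted p 0.0566), with -0.61 and -1.02 in the runs and -0.95 without day 14 replicate 1. Its neighbour miR-424-5p read 507 and 784 at day 14 and 677 and 726 at day 20 in run 1, where the days overlapped. In run 2 it read 2034 and 3817 at day 14 and 875 and 2154 at day 20, and the log2 differences were 0.15 and -1.02. Over both runs it was -0.43, or -0.69 without day 14 replicate 1. The miR-450 members were at -0.35 (SE 0.33) for miR-450a-5p and -0.57 (SE 0.31) for miR-450b-5p, both lower in each run.

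The hairpin of miR-542 was measured on both arms, and the arms differed in opposite directions. The 3' arm, miR-542-3p, read 131 and 155 at day 14 and 91.2 and 93.9 at day 20 in run 1, and 354 and 368 at day 14 and 157 and 376 at day 20 in run 2. On the log2 scale it differed by -0.59 (SE 0.31), against 0.81 for the 5' arm. The log2 ratio of the 5' arm to the 3' arm was 1.13, 1.05, -1.26 and -1.47 in the day 14 samples and 1.97, 2.62, 0.90 and -0.42 in the day 20 samples. The ratio was thus higher at day 20 by 1.21 in run 1 and 1.61 in run 2, although the runs themselves were further apart than the days. Levels of different probes are not on one scale, so only the change of such a ratio is read. Among the 13 hairpins with both arms on the panel, miR-542 had the largest change of ratio, 1.41. It was the only one whose arms kept the same opposite directions in both runs. The arms of miR-30e and miR-299 also had opposite signs within each run, but both arms turned between the runs.

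The change of ratio was next largest for miR-30a, at 0.70, with 0.71 in run 1 and 0.69 in run 2. Its log2 ratio of 5' to 3' arm was 1.92, 1.21, 1.59 and 1.54 in the day 14 samples and 2.08, 2.47, 2.202 and 2.31 in the day 20 samples, which did not overlap. The 3' arm, miR-30a-3p, differed by -0.032 (SE 0.30), against 0.67 for the 5' arm, and by -0.31 without day 14 replicate 1. The ratio was 1.40, 1.07, 1.34 and 2.28 at day 17 and 2.11, 2.06, 2.38 and 2.27 at day 23. After it came miR-197, at 0.66, with 1.28 in run 1 and 0.05 in run 2. The fourth was miR-574, at -0.48, with -0.59 in run 1 and -0.37 in run 2. Its log2 ratio was -1.37 to -1.20 at day 14 and -1.96 to -1.43 at day 20, which did not overlap either. The arms were compared after their values had been seen, and no test was made.

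**Figure D4:**
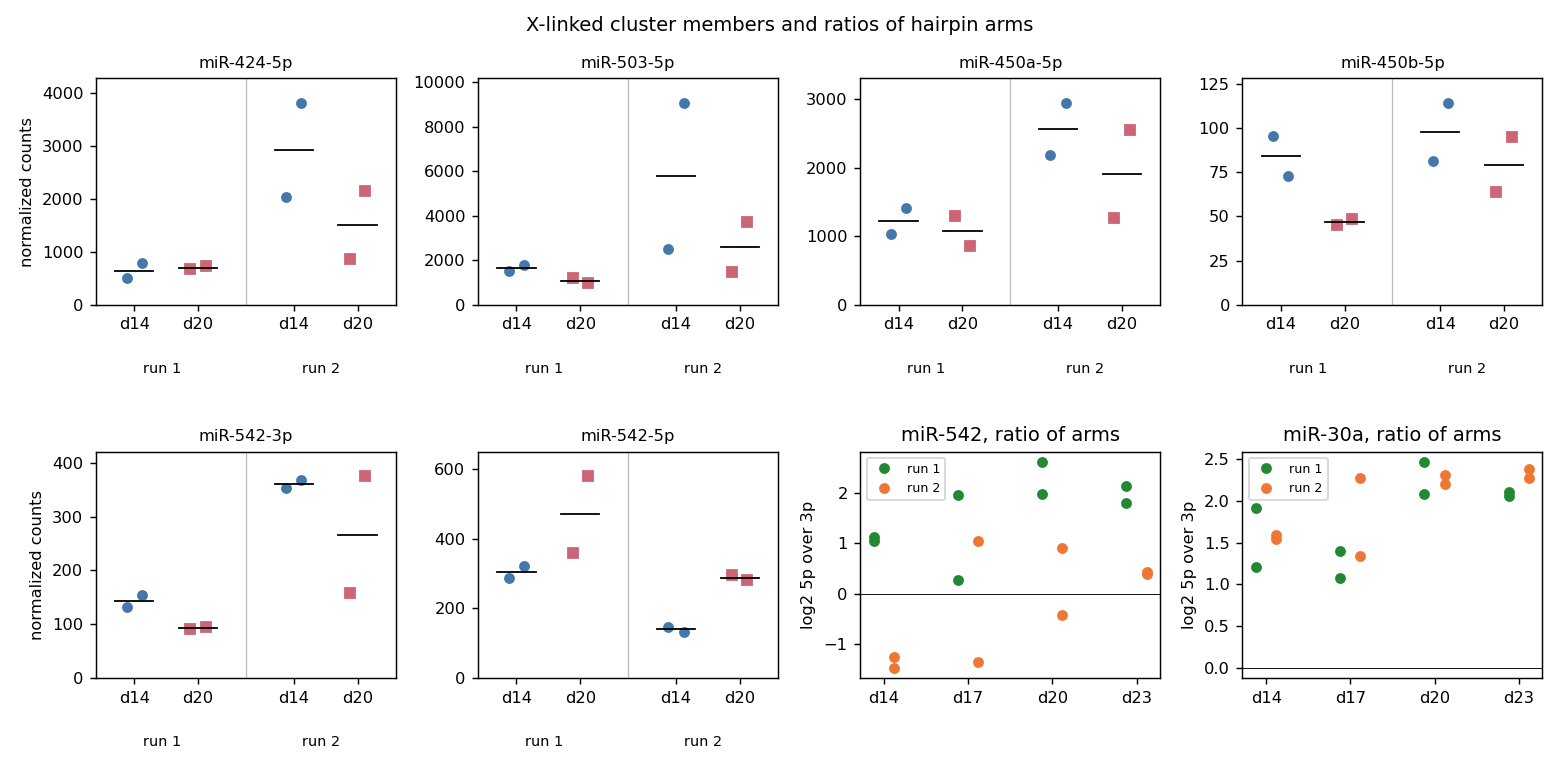
Normalized counts of the 6 probes of the X-linked cluster (blue circles day 14, red squares day 20, bars for pair means, run 1 left and run 2 right of the line), and the log2 ratio of 5p to 3p arm for miR-542 and miR-30a at all 4 days (green run 1, orange run 2). The miR-30a ratio lies at 1.21 to 1.92 at day 14 and at 2.08 to 2.47 at day 20.

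The DLK1-DIO3 list, of which 18 probes were measured and which includes miR-342-3p from a gene near the cluster, had 15 probes lower at day 20 and 3 higher. Its median was -0.14, but it was 0.14 in run 1 and -0.42 in run 2, and 7 of the 18 probes had the same direction in both runs. Thus miR-127-3p, which is encoded antisense to the retrotransposon-derived gene RTL1, differed by 0.46 in run 1 and -0.83 in run 2. A similar pair of values, 0.68 and -0.80, was found for miR-379-5p.

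The lists of cell type miRNAs took different directions in the runs. Of 7 smooth muscle, pericyte and fibroblast probes, 6 read higher at day 20, with a median of 0.27 that was 0.93 in run 1 and -0.31 in run 2. Their summed level was 6767 to 9076 normalized counts at day 14 and 14752 to 16463 at day 20 in run 1, and 19587 to 29303 at day 14 and 18647 to 21470.5 at day 20 in run 2. The contribution of this list to the value of miR-145-5p, one of its members, was not tested. The 6 endothelial probes had a median of -0.03, with 0.37 in run 1 and -0.41 in run 2, and none had the same direction in both runs. Their summed level was 9271 to 10824 at day 14 and 10969 to 12946 at day 20 in run 1, and 25445 to 34679 at day 14 and 13369 to 34462 at day 20 in run 2.

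Of 7 blood cell and leukocyte probes, 5 read lower at day 20, with a median of -0.18 that was 0.17 in run 1 and -0.47 in run 2. Their summed level was 1203 to 1347 at day 14 and 1906 to 1992 at day 20 in run 1, and 4845 to 5914 at day 14 and 2688 to 3686 at day 20 in run 2. The direction thus turned between the runs. The erythroid miR-451a had 0.033 and -1.25, and miR-150-5p, of mature lymphocytes, had 1.29 and -0.45. No value of any marker was 0, but the same holds for every probe of the table, whose lowest value was 12.03, so it does not show that a marker was detected. Without day 14 replicate 1, the medians were 0.041 for the smooth muscle list, -0.17 for the endothelial list, -0.36 for the blood cell list and -0.23 for the DLK1-DIO3 list.

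The 5 measured luteal and gonadotropin-responsive probes had a median of 0.05, which turned to -0.15 without day 14 replicate 1. Among them, miR-34a-5p, a target of p53, differed by 0.43, miR-132-3p, which luteinizing hormone raises in rodent follicles, by 0.049, miR-21-5p, a survival miRNA of granulosa cells in mice, by 0.04, and miR-183-5p by -0.60. Without that sample miR-34a-5p was at 0.23, miR-132-3p at -0.23 and miR-21-5p at -0.15. The difference of miR-183-5p was below 0 in both runs (-0.29 and -0.91). The 3 miR-181 probes had a median of 0.28, with 0.16 in run 1 and 0.60 in run 2, and the 4 probes of the miR-23/24/27 clusters had 0.35, with 0.71 and -0.07. With that sample left out, these medians were 0.27 and 0.20. The 3 miR-29 probes, which target collagens, had a median of 0.03, and the 7 miR-30 probes had 0.17. Without that sample they were -0.15 and 0.10.

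**Figure D5:**
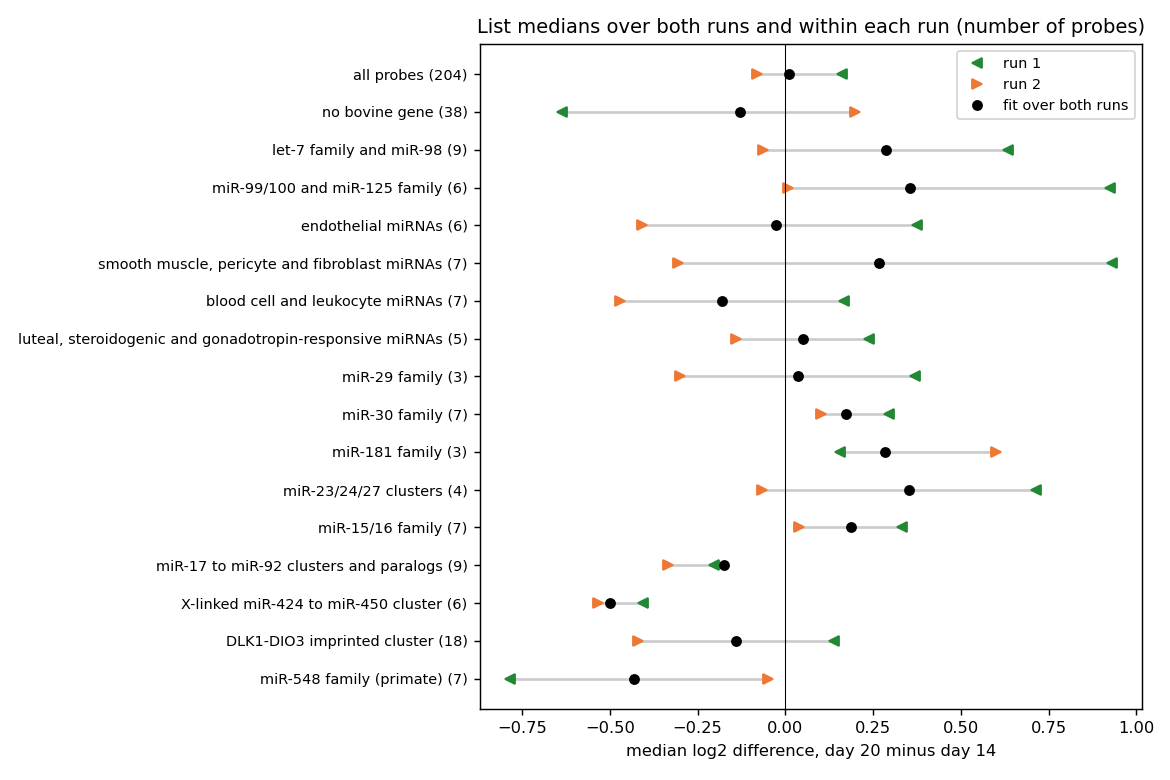
Median log2 difference (day 20 minus day 14) of each list of probes, with the number of probes in brackets, over both runs (black circles), in run 1 (green) and in run 2 (orange). The 2 runs lie on opposite sides of 0 for the let-7 family (0.63 and -0.06) and the smooth muscle list (0.93 and -0.31), and on the same side for the X-linked cluster (-0.40 and -0.53).

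The brightest probes read higher at day 20 in run 1 and on neither side in run 2. Among the 51 probes of highest mean level, 41 were higher, with a median of 0.29 that was 0.51 in run 1 and -0.06 in run 2. The brightest of all was let-7a-5p, which read 35548 and 41263 at day 14 and 61570.2 and 57774 at day 20 in run 1, and 77342 and 120106 at day 14 and 78712 and 107947 at day 20 in run 2. The fitted log2 difference was 0.29 (SE 0.23), or 0.16 without day 14 replicate 1. The endothelial miR-126-3p, which lies in a gene for a vessel-forming protein, read 7633 and 8826 at day 14 and 10472 and 8683 at day 20 in run 1, and 20517 and 29139.7 at day 14 and 10065 and 29618 at day 20 in run 2. It differed by -0.14 (SE 0.31), which turned to 0.18 without day 20 replicate 3, and the days overlapped in both runs.

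Of the 10 brightest, miR-181a-5p, which tunes T-cell receptor signalling in the thymus, read 3077 and 5544 at day 14 and 5037 and 6727 at day 20 in run 1, and 5491 and 10745 at day 14 and 12927 and 10619 at day 20 in run 2. The days overlapped in each run, and the log2 difference was 0.55 (SE 0.33), with 0.49 and 0.61 in the runs and 0.36 without day 14 replicate 1. The others of the 10 were let-7b-5p at 0.39, let-7d-5p at 0.32, let-7i-5p at -0.031, the miR-4454/miR-7975 probe at 0.31 and the miR-199a-3p/miR-199b-3p probe at 0.26, beside miR-125b-5p and let-7c-5p. Leaving out day 14 replicate 1 put these 5 at 0.26, 0.12, -0.18, 0.019 and -0.02. The miR-4454/miR-7975 probe has no bovine gene.

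The gap between the run 1 and run 2 differences was largest, in each direction, for the following 3 probes. In run 1, miR-223-3p, of neutrophils and other myeloid cells, read 42.2 and 30.7 at day 14 and 55.9 and 58.2 at day 20. In run 2 it read 104 and 776 at day 14 and 58.2 and 54.5 at day 20. One day 14 sample was far above all others, and the log2 differences were 0.65 and -2.31. Without day 14 replicate 3 it was the 1 probe called within run 2, where the remaining day 14 sample was that high one and was assumed to vary like the other groups (limma adjusted p 0.000262). The differences of miR-218-5p were 1.30 and -0.56, and those of miR-532-5p were 0.78 and -1.02. In the opposite sense, 3 probes with no bovine gene, miR-4455, miR-548n and miR-4531, had -0.86, -1.24 and -1.21 in run 1 and 1.58, 1.08 and 1.03 in run 2. Over both runs they were at 0.36, -0.081 and -0.089, and without day 14 replicate 1 at 0.81, 0.35 and 0.38.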

How the data were processed

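MicroRNAs were measured on the NanoString platform in whole-gland RNA of 16 bovine corpora lutea, 4 per day, per the labels. The authors deposited 1 table of 204 probes in 16 sample columns, and each column was matched to a sample by its name. Its values are a signal, called normalized counts by the authors, between 12.03 and 132327.78 with none at 0. Which panel, background correction, normalization and filters were used is not given in the sources used here. Low values lay on even steps that did not start at 0, so the original counts were not recovered, the depth is unknown, and no count model or counting interval was used. Of the probes, 9 name several miRNAs. Names were matched to the 1032 miRNA genes of the RefSeq table for ARS-UCD2.0, which was used for names and neighbours only.

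A pseudocount of 1 was added and log2 taken, without rescaling, so differences of low probes are understated. In R 4.3.3, limma 3.58.1 (lmFit, then trended eBayes) was run on the 16 samples, as day plus run (11 residual degrees of freedom) and as day within run (8). P-values are two-sided and were adjusted by Benjamini-Hochberg over 204 probes. Replicates are separate samples per the labels, 4 per day; animal numbers are not labelled. The fit was tested on simulated data. Same-numbered samples of the 2 days correlated positively in their deviations from the day means (r 0.39 to 0.80). With run removed as well, r was of mixed sign, at -0.49, 0.16, -0.25 and 0.093 for replicates 1 to 4. Run was therefore held rather than the number.

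Probes were named if they were at an unadjusted p under 0.05, had days apart in both runs, were among the 10 brightest, were among the brightest of a list, or had the largest gap between runs. The members, lists and rules were chosen with earlier results of these data known. The ratios of hairpin arms were added after the values were seen. Lists are described by counts and medians with no test. Alternatives covered the samples fitted, run term, pseudocount, scaling, a filter on low values, variance model, and leaving out each sample; scaling for the within-run counts was added after seeing the data. Mature miRNA sequences are not shown. The RNA sequencing named in the design text was not analysed here.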

Additional observations from a re-analysis of the deposited data

Results flagged for a closer look

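Of 124 groups of 4 samples examined for a value far from the other 3, 2 were found. Chance gives about 1 in 20 where the 4 values share a single spread. Groups that span both runs need not do so, and the count is therefore not read against that rate. The day 20 value of miR-126-3p in replicate 4 was 29618 normalized counts, against 10472, 8683 and 10065 in the other day 20 samples. On the log2 scale, its gap to the nearest of them was 0.847 of the range of the 4 values. The day 14 samples spanned 7633 to 29139.7, with both high values in run 2. The day 20 value of miR-195-5p was also high in replicate 4, at 2197 against 1063, 919 and 1062, with a gap of 0.833 of the range on the log2 scale. Each group of 4 holds both runs. Over the 16 samples, run 2 read higher than run 1 by a log2 difference of 1.06 for miR-126-3p and 0.91 for miR-195-5p. The causes were not tested.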

How the results depend on the processing

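Over both runs, 0 probes were called under the alternatives run, except 31 when run 1 was fitted alone. Within runs, 1 was called in run 1 under quantile normalization (miR-222-3p; this scaling of the within-run counts was added after seeing the data), and leaving out 1 sample gave 0 in run 1 and 0 to 1 in run 2. At an unadjusted p under 0.05, the 8 higher and 5 lower probes became 4 higher with the day 14 and day 20 samples alone, 0 and 2 with no run term, 14 and 1 with samples centred on the median of all probes, 5 and 10 with centring on probes with a bovine gene, 9 lower with quantile normalization, 0 lower with the filter on low values (71 probes tested), 25 and 18 with array weights, 32 and 23 with run 1 alone, and 3 and 3 with run 2 alone. Leaving out 1 sample gave 0 to 16 higher and 2 to 8 lower. It was 1 and 2 without day 14 replicate 1, 16 and 8 without day 14 replicate 4, and 0 and 3 without day 20 replicate 2. With the replicate block in place of run, 0 were called and 9 were higher and 5 lower, and no call changed. Centring on probes with a bovine gene moved the share of higher probes from 51.5% to 40.7%, and the median of all probes from 0.01 to -0.11. Over the 71 probes past the filter on low values, the share was 70.4% and the median 0.21.

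Of the 59 probes of this comparison recomputed, 44 kept their direction under every alternative run. Leaving out 1 sample turned 14: miR-126-3p (-0.39 to 0.18), miR-199a-3p/miR-199b-3p (-0.020 to 0.65), let-7i-5p (-0.18 to 0.12), miR-125a-5p (-0.0092 to 0.42), miR-30e-5p (-0.27 to 0.018), miR-30a-3p (-0.31 to 0.21), miR-132-3p (-0.31 to 0.40), miR-21-5p (-0.15 to 0.29), miR-379-5p (-0.30 to 0.18), miR-223-3p (-1.29 to 0.070), miR-532-5p (-0.49 to 0.16), miR-4455 (-0.13 to 0.81), miR-548n (-0.45 to 0.35) and miR-4531 (-0.41 to 0.38). Quantile normalization turned miR-26a-5p (-0.033), miR-21-5p (-0.090), miR-30a-3p (0.082) and miR-379-5p (0.11). Array weights turned miR-126-3p (0.082), let-7i-5p (0.14), miR-132-3p (-0.097), miR-223-3p (0.043), miR-379-5p (0.30), miR-4455 (-0.075) and miR-532-5p (0.10). Centring on all probes turned let-7i-5p (0.021) and miR-30a-3p (0.020), and centring on probes with a bovine gene turned miR-132-3p (-0.070) and miR-21-5p (-0.079). Sample totals differed by 0.25 and the median of same-named probes by 0.12, but the medians of all probes and of probes with no bovine gene by -0.052 and -0.21. The causes were not tested. Depth is unknown, and probes near the level of those with no bovine gene are limited by that level.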
